A study of Mus musculus with 65 samples.

Results

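CTCF peak lists made from 50 M G1E-ER4+E2 cells were compared with those made from 20 M cells (M, 1e6 cells), site by site. The 8 lists, 4 from each cell number, are 8 of the 65 samples of the series, and all were assessed as Pass by the study. G1E-ER4+E2 is a mouse erythroid line derived from embryonic stem cells that lacks GATA1 and carries a GATA1 protein activated by estradiol, and all cells were treated with estradiol for 24 hours. The 50 M lists came from chromatin sheared to average lengths of 290, 272, 218 and 203 bp, and the 20 M lists from chromatin of 267, 228, 211 and 199 bp. Each list is 1 library from 1 chromatin preparation of this line, so the p-values below measure the spread between libraries that also differ in chromatin length. Library numbers run from 692 to 696 on the 50 M side and from 732 to 735 on the 20 M side. Anything else that differed between these runs cannot be told apart from cell number. The labels do not state cell numbers, which were taken from the study by library number and chromatin length. A Low pass library of 178 bp, next in library number to the 20 M lists, was left out because only Pass lists were compared. The study describes a CTCF sample of low signal-to-noise from 20 M cells. For 2 libraries of 248 bp the labels leave the cell number open, and they were put on neither side. By its number, library 694 of these falls among the 50 M lists and may come from 50 M cells.

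Peaks that shared at least 1 bp were merged into 19697 sites, and each site was classed by how many lists of each side called it. A site called in all 4 lists of 50 M cells and in none from 20 M cells is called a 50 M site here, the reverse a 20 M site, and a site in every list a shared site. There were 115 50 M sites (0.584% of all sites), 5 20 M sites (0.0254%) and 7240 shared sites (36.8%). With at most 1 list of the other side allowed, the classes held 445 (2.26%) and 44 sites (0.223%). These calls define the classes, so the counts are a description and carry no test. The values that follow show how the sites differed in sequence, location, strength and genes.

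CTCF is a zinc finger protein that binds a long DNA motif at insulators and at the anchors of chromatin loops, where it halts the cohesin ring. Its sites are largely shared between tissues, and most lie away from promoters. A ChIP-seq peak caller reports a site when reads from the immunoprecipitated fragments exceed the control, so a site of weak occupancy may be called in one library and missed in another.

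The DNA under the sites shows what both sides had in common. The matrix of 19 bp learned from a library of primary LSK cells, outside the 8, had these most frequent bases, in capitals where one base made up at least 50%.
Matrix: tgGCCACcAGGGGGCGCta
The best matches at the 50 M sites near Otulin and Hyal6 and in Scin, which are among the 4 strongest, are printed to show that they hold the motif. They were, for Hyal6, Otulin and Scin in turn, on chromosome 6 (24721848-24721876), chromosome 15 (27647877-27647905) and chromosome 12 (40082642-40082670) of GRCm38, each on the plus strand. The 19 matched bases are in capitals, with 5 bases of genome on each side.
Hyal6 site: aaattATACCACCAGATGGCGCTAcctcc
Otulin site: aataaTGGACACTAGGGGGCACCAtaaga
Scin site: ctacaTCTCCACTAGAGGGAGCTGtggtt
All 5 of the 20 M sites held a match, each on the minus strand, on chromosome 9 (30138124-30138152), chromosome 3 (104715161-104715189), chromosome 4 (120368843-120368871), chromosome 5 (114356812-114356840) and chromosome 14 (62924986-62925014).
Ntm site: tccacCAGCCAGCAGGGGGCCTCAactaa
Fam19a3 site: tcctcCAGCCTGTAGGTGGCACTGtggag
Scmh1 site: gccaaGGGCCCCTAGGTGGCGCACcttcc
Myo1h site: acagcAGCCCACTAGAGGGCTCTGctggt
Wdfy2 site: cacggAGGCCAGTAGAGGGAGTCAgtcct
For comparison, the strongest shared site lies in the vesicle transport gene Sec22c on chromosome 9 (121697920-121697948, plus strand).
Sec22c site: gccagTGGCCACCAGGGGGCACTGtaggc

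A match to the matrix was found in 111 of 115 50 M sites (96.5%, 95% Wilson interval 91.4 to 98.6), in 5 of 5 20 M sites and in 7029 of 7240 shared sites (97.1%, 96.7 to 97.4). Windows of the same length 10 kb away held a match at 16.5% of 50 M sites and at 27.2% of shared sites. Allowing 1 list of the other side, 427 of 445 sites on the 50 M side (96.0%) and 40 of 44 on the 20 M side (90.9%, 78.8 to 96.4) had a match. At the stricter match p of 1e-05 the shares were 77.4% of 50 M sites (68.9 to 84.1) and 86.1% of shared sites (85.3 to 86.9). Among the 44 sites of the 20 M side the share was 77.3% (63.0 to 87.2), and over all sites 80.8%. Sites with 2 or more matches were 15.7% of 50 M sites (10.1 to 23.4) and 29.6% of shared sites (28.5 to 30.6). They were 13.6% of the 44 sites of the 20 M side (6.40 to 26.7) and 22.4% of all sites. Shared sites were also wider, with a median of 958 bp against 821 bp for 50 M sites, which gives more room for a match. Wilson intervals cover counting error only, and sites near each other are not independent.

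Over whole lists, the share of peaks with a match was 95.9% ± 0.397 in 50 M lists and 95.8% ± 0.0927 in 20 M lists (SD, n = 4 each). The difference was 0.0327 percentage points (exact permutation test, p = 0.914). The share ran from 95.5 to 96.3% in 50 M lists and from 95.7 to 95.9% in 20 M lists. Whole peaks were scanned here, and wider peaks give more room for a match. With the middle 200 bp of each peak scanned, the share was 84.0% in 50 M lists and 86.5% in 20 M lists, a difference of -2.53 percentage points (exact permutation test, p = 0.0571, adjusted p = 0.12).

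The number of peaks was compared next, since a longer list gives a site more chances of a call. The 50 M lists held 12352, 14232, 17196 and 13519 peaks at 290, 272, 218 and 203 bp, and the 20 M lists 13241, 10655, 12349 and 12595 peaks at 267, 228, 211 and 199 bp. The sides overlapped, with the 218 bp list of 50 M cells far above the others and the 228 bp list of 20 M cells lowest. The means were 14325 ± 2065 peaks for 50 M and 12210.0 ± 1103 for 20 M (SD, n = 4 each), a ratio of 1.17 (two-sided exact permutation test on log10 numbers, p = 0.0857, adjusted p = 0.15). The difference of 2115 peaks was 1158 without the 218 bp list. The depth of the libraries is unknown, because the lists give no read totals.

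Peaks were also wider on the 50 M side. Median widths were 832, 834, 707 and 621 bp in 50 M lists, against 635, 582, 594 and 524 bp in 20 M lists. The 203 bp list of 50 M cells lay below the 267 bp list of 20 M cells, so the sides overlapped by this pair. Means were 748.5 ± 104 bp and 583.75 ± 45.8 bp for 50 M and 20 M (SD, n = 4 each), a difference of 165 bp (exact permutation test, p = 0.0571, adjusted p = 0.15). Within both sides the lists from shorter chromatin had narrower peaks, apart from the pairs of 290 and 272 bp and of 228 and 211 bp. Average chromatin length was 245.75 bp over the 50 M libraries and 226.25 bp over the 20 M libraries, with 1 library per length. Near lengths on the 50 M and 20 M sides were 272 and 267, 218 and 211, and 203 and 199 bp. Their median widths were 834 and 635, 707 and 594, and 621 and 524 bp. The part of chromatin length in these differences was not tested.

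**Figure D1:**
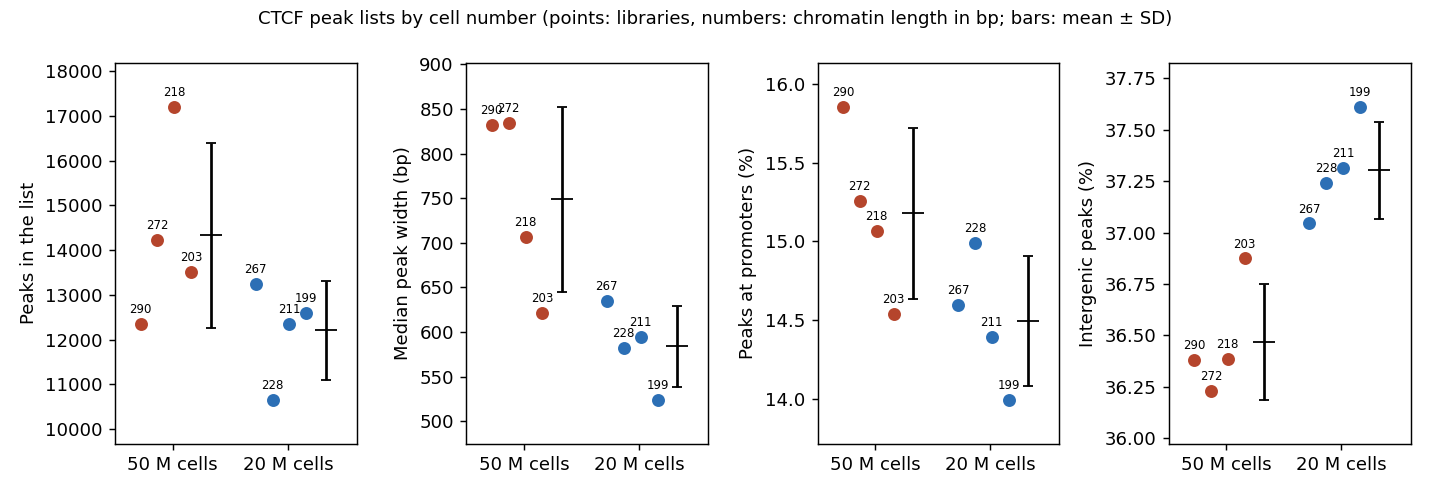
Number of peaks, median peak width in bp, and the percent of peaks at promoters and between genes in the 50 M lists (red) and 20 M lists (blue), with each library's chromatin length in bp beside its point and the mean ± SD as a black bar. The vertical axes do not start at 0. Intergenic shares were 36.2 to 36.9% in the 50 M lists and 37.0 to 37.6% in the 20 M lists, the one of these measures in which the sides did not overlap.

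Location was then compared in whole lists. Promoters were taken as 1000 bp on each side of a transcript start, gene bodies as the remaining overlap with a gene, and intergenic peaks as the rest. Intergenic peaks made up 36.4, 36.2, 36.4 and 36.9% of the 50 M lists at 290, 272, 218 and 203 bp, against 37.0, 37.2, 37.3 and 37.6% of the 20 M lists at 267, 228, 211 and 199 bp. Every 50 M list was below every 20 M list, by a mean of 0.835 percentage points (36.5% ± 0.281 against 37.3% ± 0.235, SD, n = 4 each). The two-sided exact permutation p of 0.0286 is the smallest that 4 against 4 allows, and the adjusted p over 7 tests was 0.15. With peaks at a −log10 p of 10 or more the difference was -0.43 percentage points (exact permutation p = 0.286), and by the middle of the peak -0.50 (p = 0.0286). Promoter peaks were 15.9, 15.3, 15.1 and 14.5% of the 50 M lists, against 14.6, 15.0, 14.4 and 14.0% of the 20 M lists (p = 0.0857, adjusted p = 0.15, exact permutation test). The mean difference of 0.683 percentage points was 0.154 at a −log10 p of 10 or more, 0.156 by the middle of the peak, 0.344 with chromatin under 250 bp and 1.05 with the 10000 strongest peaks. The gene body share was 48.4% ± 0.393 in 50 M lists and 48.2% ± 0.291 in 20 M lists (SD, n = 4 each, exact permutation p = 0.486).

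None of the 7 library-level exact permutation tests passed an adjusted p of 0.05, and 1 had an unadjusted p below 0.05. With 4 lists a side no test could pass on its own after adjustment. Several would have to reach the smallest p of the exact permutation test, 0.0286, together. The seventh test asked how many peaks fell in sites present in 2 or more of 4 further Pass lists from the line. That share was 95.1% ± 2.93 in 50 M lists and 96.8% ± 0.796 in 20 M lists (SD, n = 4 each, exact permutation p = 0.343). The 218 bp list of 50 M cells, at 90.9%, was the lowest of the 8, and 7.68% of its peaks were called in no other list of the 8, against 0.882 to 2.44% elsewhere.

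Called in all 4 lists of 50 M cells were 10137 sites, of which 7240 (71.4%) were also in all 4 of 20 M cells. In the other direction, 7896 sites were in all 4 lists of 20 M cells, and 91.7% of them were in all 4 of 50 M cells. Of the peaks of a 20 M list, 80.9 to 96.7% (median 87.9%) overlapped a peak of a given 50 M list. The reverse share was 59.7 to 86.0% (median 76.8%). Pairs of lists from 50 M cells shared 69.7 to 96.7% of their peaks (median 84.5%), and pairs from 20 M cells 72.0 to 89.5% (median 81.4%).

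The excess of 50 M sites over 20 M sites was not seen at equal list length. With the 10000 strongest peaks of each list, 29 sites were in all 4 of 50 M cells and none of 20 M cells, and 36 the other way. Allowing 1 list of the other side, the counts at equal list length were 147 and 110. With a cutoff at a −log10 p of 10, they were 172 and 1 with none allowed. Counts also moved when a list was left out. This relaxes the classes, since 1 list fewer must call or miss the site, so the counts tend to rise. The 20 M sites numbered 33 without the 218 bp list of 50 M cells, which had called 28 of the 39 sites found in all 4 of 20 M cells and 1 of 50 M cells. Leaving out any other list gave 8 to 17 such sites. The 50 M sites numbered 252 without the 290 bp list and 210 without the 203 bp list of 50 M cells, and 242, 196 and 202 without the 267, 211 and 199 bp lists of 20 M cells. Of the 330 sites in all 4 of 50 M cells and 1 of 20 M cells, the single caller was the 267 bp list at 127, the 199 bp list at 87, the 211 bp list at 81 and the 228 bp list at 35.

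**Figure D2:**
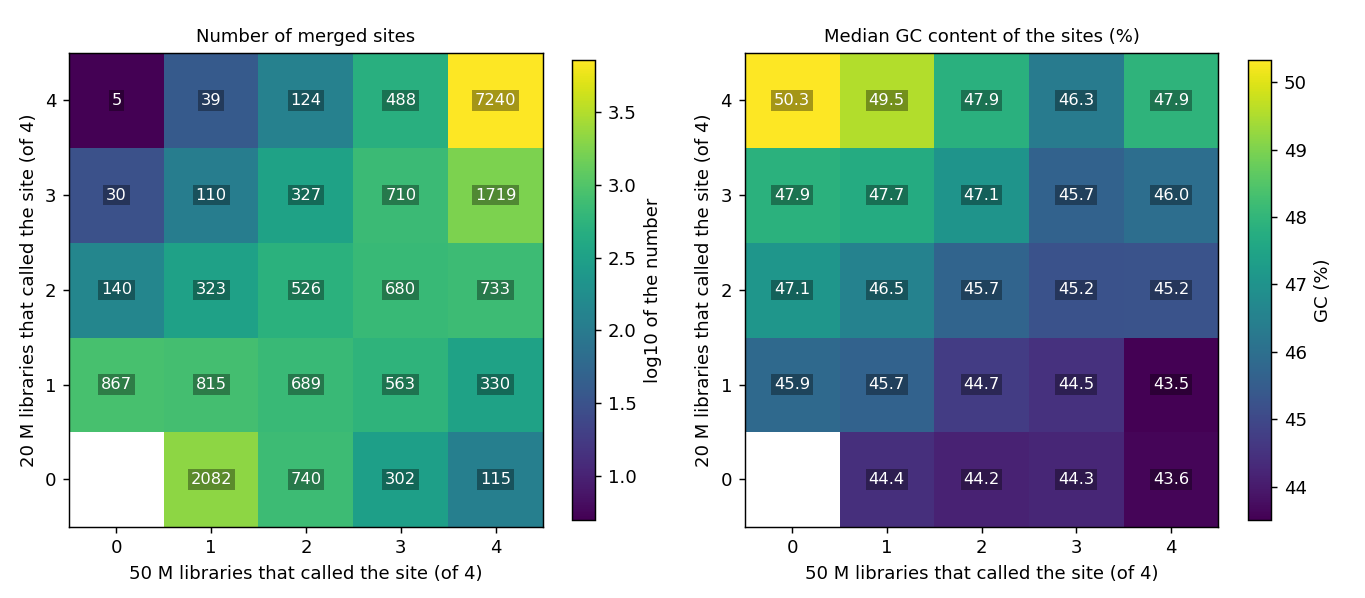
Left, the number of merged sites by how many of the 4 lists of 50 M cells (horizontal axis) and of 20 M cells (vertical axis) called them, with color on a log10 scale. Right, the median GC content in percent of the same sites. The corners hold 115 50 M sites with a median GC of 43.6% and 5 20 M sites with 50.3%, and 7240 shared sites with 47.9%.

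The classes differed in median GC content, with wide overlap between single sites. The median over 50 M sites was 43.6% (middle 50% of sites 40.1 to 48.2, range 32.1 to 63.3), over the 5 20 M sites 50.3% (42.2 to 54.2 in full), and over shared sites 47.9% (44.2 to 51.8). Over sites with at most 1 list of the other side, it was 43.5% for 445 sites of the 50 M side and 49.6% for 44 of the 20 M side. Sites called in 2 lists of each side had a median of 45.7%. At every number of 50 M calls from 0 to 4, sites called in all 4 lists of 20 M cells had a higher median GC than those called in 1. With equal list lengths the medians were 44.2% for the 29 sites of 50 M cells and 49.1% for the 36 of 20 M cells. Among libraries with chromatin under 250 bp, an alternative chosen after the data were seen, they were 43.6% for 885 sites and 50.4% for 28. Leaving out 1 list at a time gave 43.4 to 44.3% for 50 M sites and 46.1 to 51.0% for 20 M sites. At a −log10 p of 10 or more, 172 sites of 50 M cells had a median of 44.9% and the single site of 20 M cells had 44.6%. Whole lists differed far less, with median GC of their sites from 46.5 to 47.0% in 50 M lists and from 46.9 to 47.6% in 20 M lists.

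Other features of sequence differed less clearly. Sites with at least 50% of bases in soft-masked repeats were 14 of 115 50 M sites (12.2%, Wilson interval 7.39 to 19.4), 0 of 5 20 M sites, 4 of the 44 sites of the 20 M side with 1 list allowed (9.09%, 3.59 to 21.2) and 348 of 7240 shared sites (4.81%, 4.34 to 5.32). Over all sites the share was 9.16%, inside the intervals of the 50 M sites and of the 20 M side. The median merged width was 821 bp for 50 M sites, 649 bp for 20 M sites and 958 bp for shared sites. Another site lay within 1000 bp of 7 of 115 50 M sites (6.09%) and of 8.02% of shared sites.

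The 50 M sites were placed much like shared sites. Of the 115 50 M sites, 18 lay at promoters (15.7%, 10.1 to 23.4), 53 in gene bodies (46.1%, 37.3 to 55.2) and 44 between genes (38.3%, 29.9 to 47.4). Of the 7240 shared sites, 16.9% lay at promoters, 47.4% in gene bodies and 35.7% between genes, all inside the 50 M intervals. The 5 20 M sites were 1 promoter, 1 gene body and 3 intergenic sites. With 1 list of the other side allowed, 63 of 445 sites of the 50 M side lay at promoters (14.2%, 11.2 to 17.7), and 1 of 44 of the 20 M side (2.27%, 0.402 to 11.8), an interval below that of shared sites (16.01 to 17.7). Intergenic sites were 37.3% (32.9 to 41.9) of the 50 M side and 54.5% (40.1 to 68.3) of the 20 M side. These shares moved with the setting. At equal list length, 2.78% of the 36 sites of 20 M cells lay at promoters, 61.1% in gene bodies and 36.1% between genes, so that the intergenic share was near the 34.5% of shared sites. With peaks trimmed to the middle 200 bp, 26.7% of 15 sites of 20 M cells lay at promoters, against 14.8% of shared sites. The median distance to a protein-coding start was 17019 bp for 50 M sites, 28147.5 bp for the 44 sites of the 20 M side and 14031 bp for shared sites.

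Sites of 1 side were weak where they were called. Strength was taken as the percentile rank by −log10 p within a list, where 100 is the strongest peak, since values depend on the depth of each library. The median rank of 50 M sites was 17.2, 20.3, 31.2 and 23.0 in the 290, 272, 218 and 203 bp lists. The 20 M sites had 30.8, 26.7, 25.8 and 30.8 in the 267, 228, 211 and 199 bp lists. Shared sites had medians of 68.7 to 77.8 in 50 M lists and of 63.6 to 70.8 in 20 M lists. As −log10 p, the 50 M sites had medians of 6.505 to 9.67, just above the lowest deposited value of 5, and shared sites 15.0 to 25.9 in the same lists. Calls depend on this same −log10 p, so the gap in rank between one-sided and shared sites is largely built into the classes.

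**Figure D3:**
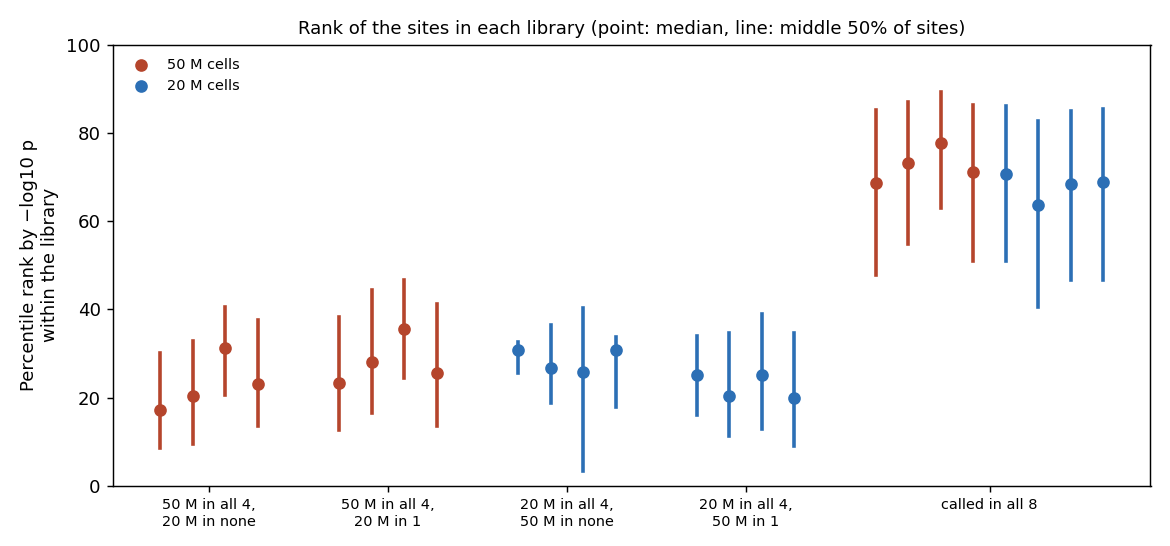
Percentile rank by −log10 p within each list for sites called in all 4 lists of one side and 0 or 1 of the other, and for shared sites, with 1 point for each 50 M library (red) or 20 M library (blue) in order of chromatin length from the longest, and a line over the middle 50% of sites. Medians of the one-sided classes lie between 17.2 and 35.5 and those of shared sites between 63.6 and 77.8.

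The 10 strongest 50 M sites had median ranks of 41.5 to 57.6 over the 4 lists, and the ranks moved between lists. The first lies between genes on chromosome 6 (24721189-24722607), 11347 bp from the start of Hyal6, a hyaluronidase family gene. Its −log10 p was 13.1, 13.3, 20.9 and 8.19 in the 290, 272, 218 and 203 bp lists, with no peak in any 20 M list. The second lies on chromosome 15 (27647435-27648468), 17259 bp from Otulin, a deubiquitinase of linear ubiquitin chains, with 7.67, 16.2, 15.3 and 12.04. Next came an intron of the noncoding gene 4933404O12Rik on chromosome 5 (136928796-136929677), with 15.8, 6.99, 12.2 and 13.3. Scin, which encodes an actin-severing protein, held a site on chromosome 12 (40082134-40083138) with 9.27, 13.4, 21.1 and 10.47. The 218 bp list had the highest value at 6 of the 10 sites, and no list was highest or lowest at every site. The others were near Nr1d2, a nuclear receptor of the circadian clock, near Fam207a, near Foxi3, a forkhead factor, and inside Knl1, a kinetochore scaffold, Cdhr2, a cadherin family gene, and Atp5s, a gene of mitochondrial ATP synthase. The Atp5s site ranged from 5.98 at 203 bp to 17.7 at 272 bp.

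Most of these sites were called elsewhere. Each of the 10 had a call in 3 or 4 of the remaining Pass lists of the line, and 9 of 10 in 4 to 10 of the 11 lists from primary blood cells. The exception was the Knl1 site, called in 0 of the 11. The Low pass library of 178 bp called 4 of the 10, at Otulin, 4933404O12Rik, Knl1 and Foxi3.

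Promoters among the 50 M sites, named after their values were seen, included those of Pim1, a serine/threonine kinase induced by cytokines, Crip1, a LIM domain protein, Rps4x, a ribosomal protein of the small subunit, Atp5d, an ATP synthase subunit, and Commd1, a regulator of copper handling. The Pim1 site lies on chromosome 17 (29492513-29493378), with its middle 91 bp from a start and a median rank of 35.6. The Commd1 site on chromosome 11 (22981948-22982744), 36 bp from a start, had a median rank of 9.56.

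The 5 20 M sites had low values throughout. Near Ntm, which encodes a neuronal adhesion protein, the site on chromosome 9 (30137815-30138463) had a −log10 p of 7.85, 6.78, 8.40 and 10.3 in the 267, 228, 211 and 199 bp lists. Near Fam19a3, a secreted protein gene, the site on chromosome 3 (104714871-104715484) had 8.07, 7.91, 6.95 and 7.68. The site near the Polycomb gene Scmh1 on chromosome 4 (120368596-120369184) had 7.24, 6.19, 10.4 and 5.98. At the promoter of Myo1h, a class I myosin, the site on chromosome 5 (114356409-114357076) had 7.14, 7.68, 5.21 and 6.26. In Wdfy2, which encodes an endosomal protein, the site on chromosome 14 (62924699-62925354) had 9.45, 5.01, 5.22 and 7.36. The lowest value at each site was 5.01 to 6.95, close to the lowest deposited value of 5, and no 50 M list called any of them. They were called in 2 to 3 of the 4 other Pass lists and in 2 to 10 of the 11 primary cell lists.

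Lists outside the 8 were not used to form the classes. In the 4 other Pass lists of G1E-ER4+E2 cells, 431 of 445 sites of the 50 M side (96.9%, 94.8 to 98.1) and 41 of 44 of the 20 M side (93.2%, 81.8 to 97.7) had a call in 2 or more, against 99.7% of shared sites. The share over all sites was 86.5%. Calls in the Pass list of 302 bp, the longest chromatin of the line's Pass lists with a stated length, and in both lists of 248 bp gave intervals that did not overlap. By chromatin length, the study's pilot with fewer cells than either side produced the 302 bp list and a 248 bp list. The 302 bp list called 247 of 445 sites of the 50 M side (55.5%, 50.9 to 60.1), 2 of 44 of the 20 M side (4.55%, 1.26 to 15.1) and 86.0% of shared sites. Over all 19697 sites it called 53.8%, close to the share of the 50 M side. The lists of 248 bp called 64.3% (59.7 to 68.6) and 57.1% (52.4 to 61.6) of the 50 M side, and 36.4% (23.8 to 51.1) and 22.7% (12.8 to 37.0) of the 20 M side. Of all sites they called 64.5% and 57.0%, again close to the 50 M side. The first value of each pair is from library 694, which may come from 50 M cells. Its calls may then not be independent of the 50 M side. A list of 226 bp called 92.4% of sites of the 50 M side (89.5 to 94.5) and 90.9% of the 20 M side (78.8 to 96.4), and a list of 214 bp 67.9% (63.4 to 72.0) and 33 of 44 (60.6 to 85.4%). The 226 and 214 bp lists called 83.5% and 73.0% of all sites. The Low pass list of 178 bp called 14.6% (11.6 to 18.2) of the 50 M side, 13.6% (6.40 to 26.7) of the 20 M side and 68.7% of shared sites. It called 34.7% of all sites, above the intervals of both sides. Chromatin length and GC content moved with the classes, and their part in the calls was not tested.

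**Figure D4:**
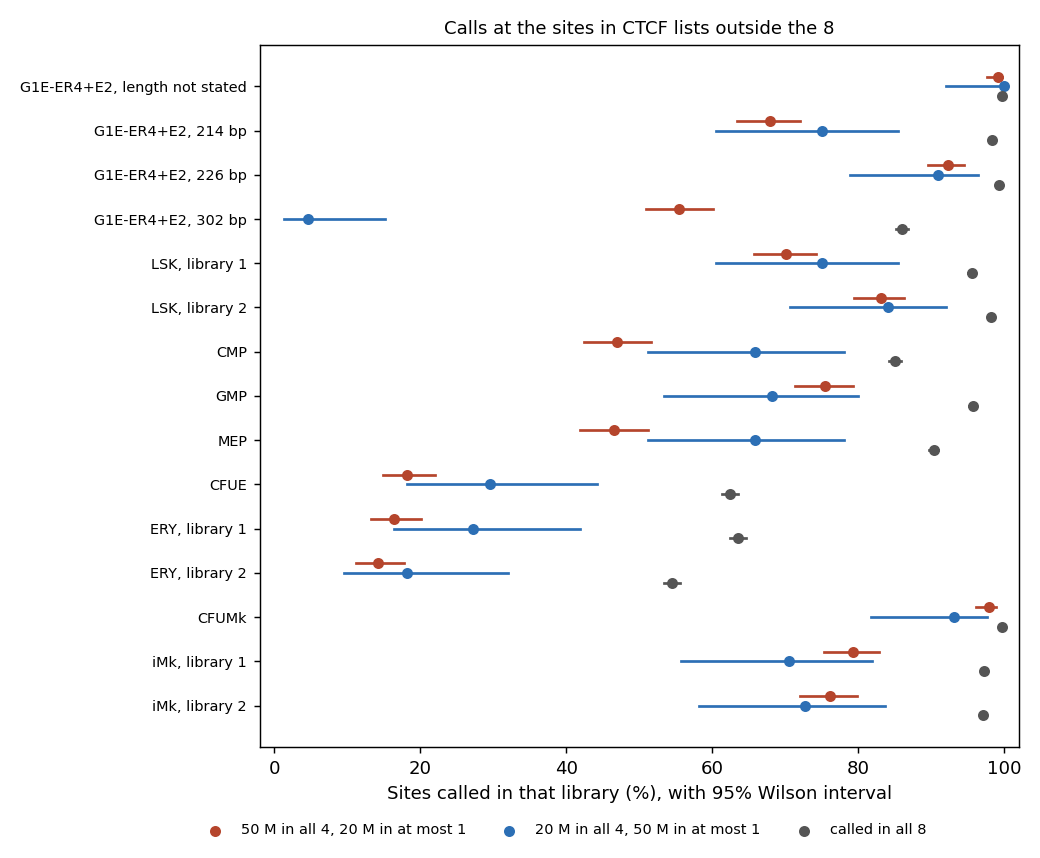
Percent of sites called in each CTCF list outside the 8, for sites in all 4 lists of 50 M cells and at most 1 of 20 M cells (445 sites, red), the reverse (44 sites, blue) and shared sites (7240, grey), with 95% Wilson intervals. In the list from 302 bp chromatin 55.5% of the 50 M side and 4.55% of the 20 M side were called, against 53.8% of all sites.

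The primary cells are LSK stem and progenitor cells, the progenitors CMP, GMP and MEP, the erythroid CFUE and ERY, and the megakaryocytic CFUMk and iMk. Shared sites were called in all 11 lists at 38.7% (37.6 to 39.9), sites of the 50 M side at 2.02% (1.07 to 3.799) and of the 20 M side at 9.09% (3.59 to 21.2). Of all merged sites, 17.2% were called in all 11. In CFUMk 98.0% of the 50 M side (96.2 to 98.9) and 93.2% of the 20 M side (81.8 to 97.7) were called, against 99.7% of shared sites. Of all sites CFUMk called 95.9%. Both ERY lists called few, at 16.4% and 14.2% of the 50 M side and 27.3% and 18.2% of the 20 M side, and 63.5% and 54.5% of shared sites. Of all sites they called 34.0% and 28.5%. In MEP 46.5% of the 50 M side (41.9 to 51.2) and 65.9% of the 20 M side (51.1 to 78.1) were called. The MEP list called 61.7% of all sites, inside the interval of the 20 M side. Only 7 of 445 sites of the 50 M side (1.57%), 3 of 44 of the 20 M side (6.82%) and 15 of 7240 shared sites (0.207%) were in none of the 11 lists. Over all sites that share was 2.99%.

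TAL1, the erythroid basic helix-loop-helix factor mapped in the same line, was called in at least 5 of its 10 Pass lists at 7 of 445 sites of the 50 M side (1.57%, 0.764 to 3.21) and at 118 of 7240 shared sites (1.63%, 1.36 to 1.95). None of the 44 sites of the 20 M side overlapped such a TAL1 site, which allows a share of up to 6.82%.

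Genes of blood and of CTCF biology were examined through 7 lists with 94 entries, covering blood lineages, heme and iron handling, CTCF and cohesin, and imprinted loci. Shared sites lay within the gene or 10 kb of it for 29 of the 94, including 9 of 16 erythroid regulators, 6 of 20 heme, iron and membrane genes, 0 of 8 genes of stem cells and progenitors, 1 of 8 of megakaryocytes, 3 of 9 of granulocytes and monocytes, 5 of 15 CTCF and cohesin genes and 5 of 18 imprinted genes. Over all 21951 protein-coding genes the share with a shared site was 28.4%. None of the 94 had a 50 M site or a 20 M site, against 105 (0.478%) and 3 (0.0137%) of all protein-coding genes. With 1 list of the other side allowed, 1 of the 18 imprinted genes had a site of the 50 M side, against 1.97% of all genes, and none of the 94 had a site of the 20 M side, against 0.150% of all genes.

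The imprinted gene was Cdkn1c. It encodes an inhibitor of cyclin-dependent kinases that is expressed from the maternal allele. A site 5495 bp from its start, on chromosome 7 (143466100-143466989), had a −log10 p of 11.4, 12.1, 12.7 and 5.89 in the 50 M lists of 290, 272, 218 and 203 bp, and 6.43 in the 211 bp list of 20 M cells. All 11 primary cell lists called this site.

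The 7240 shared sites have a value in all 8 lists, so their ranks could be tested across sites. In each list the shared sites were ranked by −log10 p among themselves. Normal scores of these ranks were fitted with limma, with Benjamini-Hochberg adjustment over all 7240. The percentile ranks printed below for single sites are those within whole lists. At an adjusted p of 0.05, 4 sites ranked higher (0.0552%) and 5 lower (0.0691%) with 50 M than with 20 M cells. At an unadjusted p of 0.05 there were 321 and 316. In all 9 the ranks of the sides did not overlap, which held for 149 of all shared sites with every 50 M list higher (2.06%) and 191 with every one lower (2.64%). Pearson's r of the scores across these sites was 0.615 to 0.717 between 50 M lists, 0.549 to 0.619 between 20 M lists and 0.552 to 0.647 between the sides. Sites are not independent replicates, and no test was made of these values.

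The 4 higher sites were all intergenic. On chromosome 9 (120500849-120502691), 9279 bp from the translation factor gene Eif1b, the −log10 p was 45.5, 73.7, 91.2 and 58.7 in the 50 M lists of 290, 272, 218 and 203 bp, against 19.5, 14.2, 24.7 and 26.2 in the 20 M lists of 267, 228, 211 and 199 bp. Every 50 M list ranked it at 98.9 or above and every 20 M list at 96.6 or below. The difference in normal score was 1.38 ± 0.27 (SE, limma adjusted p = 0.00549), higher in 4 of 4 lists. On the same chromosome (78526952-78528515), 46010 bp from Eef1a1, the elongation factor gene, it was 59.9, 73.4, 110.1 and 75.8 in the 50 M lists, against 40.3, 15.6, 38.1 and 19.02 in the 20 M lists (difference 1.24 ± 0.25, SE, limma adjusted p = 0.00684). A site 106107 bp from the zinc finger gene Zfp644 on chromosome 5 (106802120-106803753) had 29.4, 40.1, 57.4 and 26.5, against 14.1, 7.69, 12.8 and 9.58. The last of them, 26839 bp from D1Ertd622e on chromosome 1 (97688411-97689414), had 33.3, 24.9, 33.5 and 20.5, against 11.8, 6.596, 7.46 and 6.95. Ranked by fold enrichment the first 3 of these no longer passed, with limma adjusted p of 0.774, 0.325 and 0.627, while the site near D1Ertd622e had 0.00605. The first 3 are 1564 to 1843 bp wide, against a median of 958 bp over shared sites.

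The 5 lower sites showed the reverse. Near the kinase gene Dclk3 on chromosome 9 (111496763-111497724) the −log10 p was 10.9, 12.8, 18.9 and 5.77 in the 50 M lists, against 23.1, 22.2, 22.6 and 20.97 in the 20 M lists. The difference in normal score was -2.22 ± 0.42 (SE, limma adjusted p = 0.00549), and all 4 of the 50 M lists ranked the site at 63.6 or below, while all 4 of the 20 M lists had it at 91.0 or above. The site near Neu4, a sialidase gene, on chromosome 1 (94034621-94035566) had 7.30, 5.63, 11.01 and 5.05, against 22.8, 12.6, 13.9 and 10.8 (difference -2.46 ± 0.48, SE, limma adjusted p = 0.00549). It was the one of the 9 with no match to the matrix. The site 411781 bp from Zfp536, a zinc finger gene, on chromosome 7 (37357396-37358289) had 7.68, 9.29, 17.4 and 5.43, against 19.9, 14.0, 22.8 and 13.2. Sites in the antisense gene Gm12239 on chromosome 11 (55991406-55992382) and in Gm10639 on chromosome 9 (78295831-78296730) had limma adjusted p of 0.0157 and 0.0322. Ranked by fold enrichment, the Gm12239 site no longer passed (limma adjusted p = 0.107), while the other 4 did. At Gm10639 the 50 M lists had 7.36, 7.88, 20.3 and 7.19, against 17.1, 19.6, 14.3 and 18.0 in the 20 M lists, so that raw values overlapped through the 218 bp list while ranks did not.

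**Figure D5:**
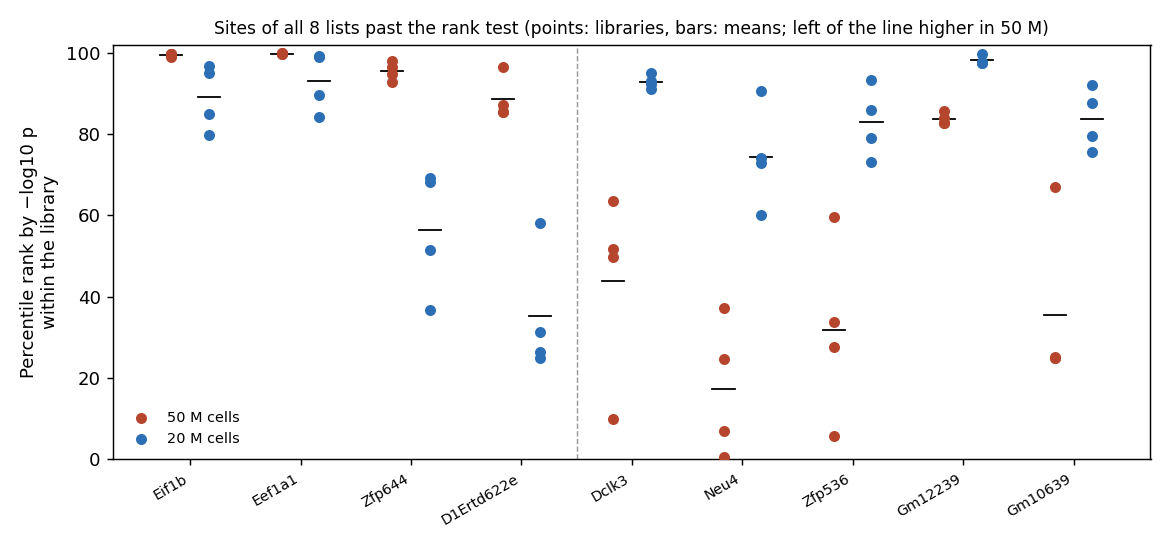
Percentile rank by −log10 p within each list of the 9 shared sites past the limma test, named by the gene they lie in or nearest to, with 50 M libraries in red, 20 M libraries in blue and means as bars. Sites left of the dashed line rank higher and sites right of it lower with 50 M cells, and in each the 2 sets of points do not overlap.

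The calls in this test moved with the list left out, which also leaves fewer lists and less power. Without the 272, 218 or 203 bp list of 50 M cells no site passed as higher, and without the 272 or 203 bp list 1 passed as lower. Without the 203 bp list that site was none of the 5 above, so none of the 9 sites still passed. Leaving out any list of 20 M cells kept 3 or 4 of the 4 higher sites and 3 to 5 of the 5 lower sites. Without the 290 bp list of 50 M cells, 2 and 4 of them still passed. Over all 8 ways to leave out a list, the counts ran from 0 to 8 higher and from 1 to 7 lower. With chromatin length as a covariate 5 and 5 passed, of which 3 and 4 were the sites above. The sites near D1Ertd622e (limma adjusted p = 0.0913) and in Gm10639 (0.0547) no longer passed in that fit.

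The 5 shared sites of highest median rank were chosen for their ranks over all 8 lists, which leaves the ranks little room to differ. The strongest, in Sec22c on chromosome 9 (121697098-121698448), was ranked at 99.9881 or above in all 8 lists, with a −log10 p of 218, 183, 235 and 141 in the 50 M lists, against 217, 137, 207 and 115 in the 20 M lists. The next 4 lie in Snx29, a sorting nexin gene, Rdh13, a retinol dehydrogenase gene, Nemp1, a nuclear envelope gene, and at the promoter of Dus3l, a tRNA-modifying enzyme gene. At Nemp1 the −log10 p was 79.9, 133.5, 172.2 and 103.9 in the 50 M lists, against 96.0, 69.0, 85.5 and 85.2 in the 20 M lists, and the sides overlapped.

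Shared sites at promoters ranked slightly higher at the median in the 50 M lists. The median difference in normal score was 0.11 over 1220 shared promoter sites, -0.01 over 3433 in gene bodies and -0.02 over 2587 between genes, with a median of 0.01 over all. The middle 50% of promoter sites ran from -0.22 to 0.43, so a part of them ranked lower. None of the promoter sites passed the test alone. Split by width into 5 groups, shared sites had medians from -0.11 in the narrowest group to 0.13 in the widest. Ranked among the shared sites only, the promoter sites had a median percentile of 61.3, 60.2, 63.5 and 60.8 in the 50 M lists of 290, 272, 218 and 203 bp, against 56.9, 57.7, 57.6 and 53.8 in the 20 M lists of 267, 228, 211 and 199 bp. Every 50 M list was above every 20 M list. The corresponding medians for gene body sites were 47.4 to 48.6 in 50 M lists and 48.1 to 49.7 in 20 M lists. This measure was chosen after its values were seen, so no test was made.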

How the data were processed

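CTCF was mapped by ChIP-seq in G1E-ER4+E2 cells. The authors aligned reads to mm10 with Bowtie (version 1.0.0 in the submitters' processing notes, an earlier one in the methods) and called peaks per library with MACS, for most libraries of this line against a composite input. The deposited lists give each peak's position, its fold enrichment as a ratio and its −log10 p, never below 5. Neither the p cutoff nor the treatment of duplicate reads is given in the sources used here. Depth is unknown, so values were ranked within lists, and the number of libraries and peaks limits precision.

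Groups followed library numbers. The sites and gene lists were chosen with earlier results of these data known. Locations came from GENCODE vM21 basic on GRCm38.p6, and no peak passed a chromosome end. The matrix was learned in 15 rounds from the 2000 strongest peaks of an LSK library and scanned on both strands at p = 0.0001 per position. Exact permutation tests and Wilson intervals used Python 3.11 with SciPy, and limma (trend) used R. Scripts were tested on simulated data. Adjusted p are Benjamini-Hochberg values over 7 library-level tests or 7240 sites. Named were the 10 strongest one-sided sites per side, up to 5 sites per direction past the rank test, the 5 strongest shared sites and listed genes with a one-sided site within 10 kb. Alternatives covered list length, cutoff, merging, promoter width, motif threshold, chromatin length and each library. Input and TAL1 Low pass and Fail lists were not used here. The result for 1 listed gene is not reported here.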

Additional observations from a re-analysis of the deposited data

Results flagged for a closer look

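In groups of 4, a value was looked at again where its gap to the nearest other was too large a part of the range by Dixon's 95% value, and chance marks about 1 in 20 groups. Over 57 groups 4 values did so. The gene body share of the 290 bp list of 50 M cells was 47.8%, 47.7655% before rounding, against 48.5 to 48.6% in the other 3. That of the 228 bp list of 20 M cells was also 47.8%, at 47.771%, against 48.3 to 48.4% in the other 3. At the shared Gm10639 site the 218 bp list of 50 M cells had a −log10 p of 20.342, against 7.19 to 7.88 in the other 3 lists of that side. At the D1Ertd622e site the 267 bp list of 20 M cells had 11.807, against 6.596 to 7.46 in the others.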

How the results depend on the processing

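No paired analysis was possible because the labels give these libraries no replicate numbers, and no chromatin length is shared between the sides. In all 8 ways of leaving out a list, 50 M sites numbered 130 to 252 (482 to 937 with 1 list of the other side allowed), 20 M sites 8 to 33 (67 to 156) and shared sites 7248 to 8023. Leaving out a list relaxes the classes, so these counts tend to rise. Trimming peaks to their middle 200 bp gave 15 20 M sites (81). The 10000 strongest peaks gave 29 50 M sites (147) and 36 20 M sites (110), and a −log10 p of at least 10 gave 172, 1 (8) and 2531 shared sites. With chromatin under 250 bp only, chosen after seeing the data, there were 885 (2319) and 28 (413). The cause of these shifts was not tested.
The mean difference, 50 M minus 20 M, in the gene body share changed sign to -0.03 percentage points with the 10000 strongest peaks and to -0.0175 with promoters of 500 bp, and that in the share of peaks in sites of other lists to 0.393 with the 10000 strongest. The difference in motif share changed sign to -0.283 (chromatin under 250 bp), -0.154 (−log10 p of at least 10), -0.499 (match p of 1e-05) and -2.53 (middle 200 bp scanned), and ran from -0.107 to 0.161 when a list was left out. None of these 3 measures had passed a test. Shared sites at promoters made up 13.7% (500 bp), 13.6% (by middle), 14.8% (trimmed), 18.6% (10000 strongest) and 21.2% (−log10 p of at least 10), those in gene bodies 49.4% (500 bp) and 45.4% (−log10 p of at least 10), and those between genes 36.9%, 38.2%, 37.0%, 34.5% and 33.5% in the order of the promoter values. The promoter share of 20 M sites was 2.27% with 1 list of the other side allowed, 2.78% with the 10000 strongest, 26.7% with trimmed peaks and 3.03 to 25% when a list was left out, and at a −log10 p of 10 the single site lay in a gene body (promoter 0%, gene body 100%, intergenic 0%). The rank test called 2 higher by fold enrichment and 11 lower on quantile-normalised log2 values, and 0 to 8 higher and 1 to 7 lower when a list was left out. Of the other values, 222 kept their direction and their side of the threshold, or moved within counting or replicate error, though some changed in size by over 1.5 times. In the library-level tests no alternative could cross the threshold, because 1 p at a time was replaced. Unknown depth, 4 libraries a side and 5 20 M sites limit every comparison.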
